A study of Mus musculus with 6 samples.

Results

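Most of the genes described here encode the machinery of membrane traffic: Rab GTPases and their partners, vesicle coats, adaptors, tethers, sorting nexins and Vps and Sec proteins. All were taken by gene symbol, so genes with other roles are among them, such as those of the translocon and signal peptidase. The rule took every protein-coding mouse gene in RefSeq whose symbol begins with Rab, Vps, Snx or Sec and a digit, or with Trappc. It also took symbols beginning with the letters of an AP-1 to AP-4 adaptor subunit and the 8 COPI coat genes. The rule matched 210 genes, of which 174 had an accessible region within 1 kb of either gene end, among 10114 of 21900 protein-coding genes with such a region. Each gene is represented by its strongest gene-end region, that with the highest mean count over all libraries, and 13 members had further gene-end regions, 14 in all. The other 36 members, among them Rab17, Rab27b, Rab7b, Rab38, Rab44, Copz1, Sec24d, Trappc4, Vps11 and Vps45, had no region of the count matrix within that distance.

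ATAC-seq, in which the Tn5 transposase inserts adapters into accessible DNA, was carried out on wild-type mouse CD8+ T cells, the cytotoxic lymphocytes, taken per the labels from pancreas, spleen and lymph nodes. The 3 palmitate libraries came from cells kept for 48 h with 100 µM palmitate, a saturated long-chain fatty acid, and the 3 control libraries from cells without it. The treatment note on the control samples repeats the palmitate text, so the groups rest on the sample titles and the treatment tag. Each library was made from 50000 sorted cells. The labels do not say whether libraries of a group came from separate animals or cultures, so p-values measure the spread between these libraries only.

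Counts in the 24605 regions totalled 2614890, 3089230 and 2720569 in the palmitate libraries and 2219136, 2855574 and 2852087 in the control libraries. The 7 T cell marker genes all had a gene-end region, Cd8a and Cd8b1 included, with summed values of 309 to 364 library-size-scaled counts (CPM) in palmitate and 314 to 351 CPM in control libraries, and none reached an unadjusted p of 0.05 with edgeR. No region lay at the 5 B cell or 2 NK cell marker genes. Of 5 pancreas markers 1 had a region, with 13.8 to 17.3 CPM in palmitate and 11.6 to 17.7 CPM in control libraries. Of 3 erythroid markers 1 had a region, with 2.30 to 4.08 CPM in palmitate and 1.70 to 5.23 CPM in control libraries. Neither region was called. Of 5 myeloid markers, Itgam and Spi1 had a region, summing to 20 to 24.5 CPM in palmitate and 12.6 to 20.4 CPM in control libraries. Itgam was higher in palmitate (log2 fold change 0.91 ± 0.28 SE, edgeR adjusted p = 0.0151), without overlap and also under a scaling with offsets that follow region strength (trended offsets, 1.26, adjusted p = 0.00512), whereas Csf1r, Lyz2 and Cd14 had no region. Of the CD4 T cell markers, Zbtb7b was higher in palmitate (0.48 ± 0.14, edgeR adjusted p = 0.0121), with overlapping groups and no call with trended offsets (0.40, adjusted p = 0.0910), and Cd4 and Foxp3 had no region. Whether other cell types had a part in the results below was not tested, and in bulk libraries fewer open cells and less opening per cell cannot be told apart.

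Membrane proteins and secreted cargo move between compartments in vesicles that coats and adaptors form, Rab GTPases direct, and tethers and SNARE proteins dock and fuse. COPII and COPI coats work between the endoplasmic reticulum and the Golgi, clathrin adaptors between the Golgi, the plasma membrane and endosomes, and retromer and sorting nexins return receptors from endosomes. In cytotoxic T cells the same machinery carries lytic granules to the synapse and recycles T cell receptors.

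More gene ends of the members had higher than lower accessibility in palmitate-treated cells. Of the 174 main regions, 63 were higher (36.2%) and 4 were lower (2.30%), by edgeR's quasi-likelihood test with a trimmed-mean (TMM) factor per library, at a false discovery rate of 0.05. The same test called 11.9% of all 24316 tested regions higher and 12.7% lower, and called 26.4% of the main gene-end regions of all genes higher and 1.92% lower. The log2 fold change, palmitate over control, was positive at 144 members, with a median of 0.20 and a range of -0.84 to 0.90, against a median of 0.15 over all gene ends and -0.05 over all regions. The palmitate libraries all lay above the controls at 87 members (50.0%) and all below at 10 (5.75%), where 37.2% and 5.80% of all gene ends did so. A region shared with the end of another gene cannot be assigned to either, and of the 46 members with such a region 17 were called, all higher, beside 46 higher and 4 lower of the 128 others.

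**Figure D1:**
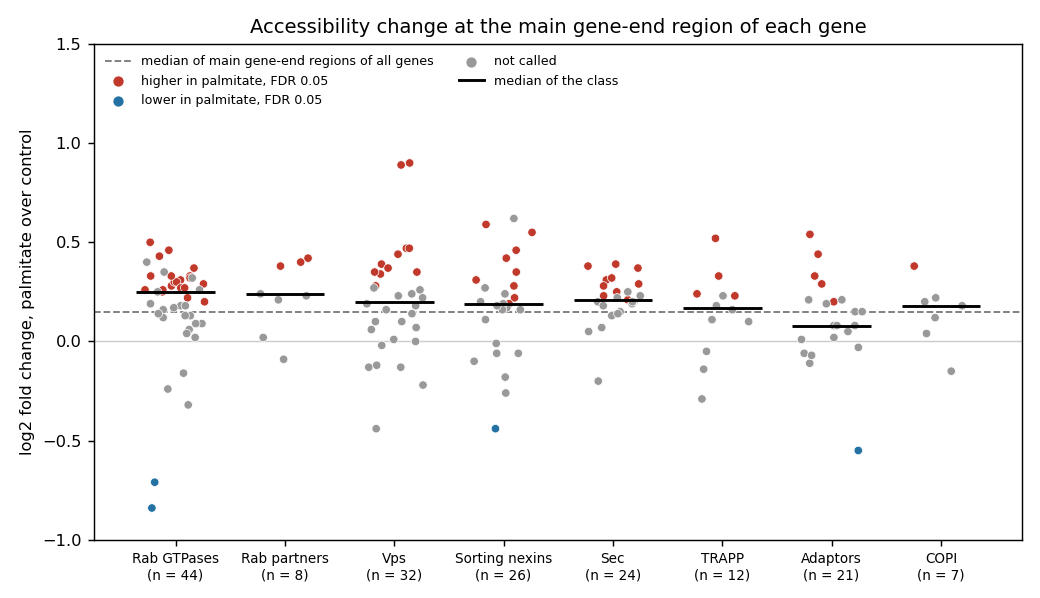
Log2 fold change (palmitate over control) at the main gene-end region of each of the 174 members by class, with the median of each class as a bar and the median of all gene ends, 0.15, as a dashed line. Most points lie above 0, 4 called points lie below it, and the adaptors have the lowest class median, 0.08.

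The calls went with how open the regions were. When all gene ends were split into 3 equal groups by mean CPM, at 32.5 and 77.8 CPM, the strongest group held 66 members, of which 44 were higher (66.7%), against 62.1% of all gene ends of that strength. In the middle group 16 of 74 members were higher (21.6%), against 14.8%, and in the weakest group 3 of 34 were higher (8.82%) and 3 lower, against 2.33% higher and 4.74% lower of all gene ends. Across members, the log2 fold change and the mean CPM had a Spearman correlation of 0.41, against 0.52 across all gene ends, given as a description since all regions share the same libraries. The trended offsets, fitted per library over all regions, left 9 members higher (5.17%) and 5 lower (2.87%) with a median of 0.06. Over all regions it brought that correlation to -0.01, but at gene ends it turned the trend round, to -0.27 across members and -0.25 across all gene ends. The members' median with trended offsets was 0.14 in the weakest group, 0.08 in the middle group and 0.02 in the strongest. With those offsets 2.46% of all gene ends were higher and 1.27% lower, with a median of 0.05. Only 8 of the 63 higher calls and 2 of the 4 lower calls were made under both scalings. These are given below with both values, and the other TMM calls at main regions were not made with trended offsets. The background for the class counts below is 26.4% higher and 1.92% lower of all gene ends with TMM.

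**Figure D2:**
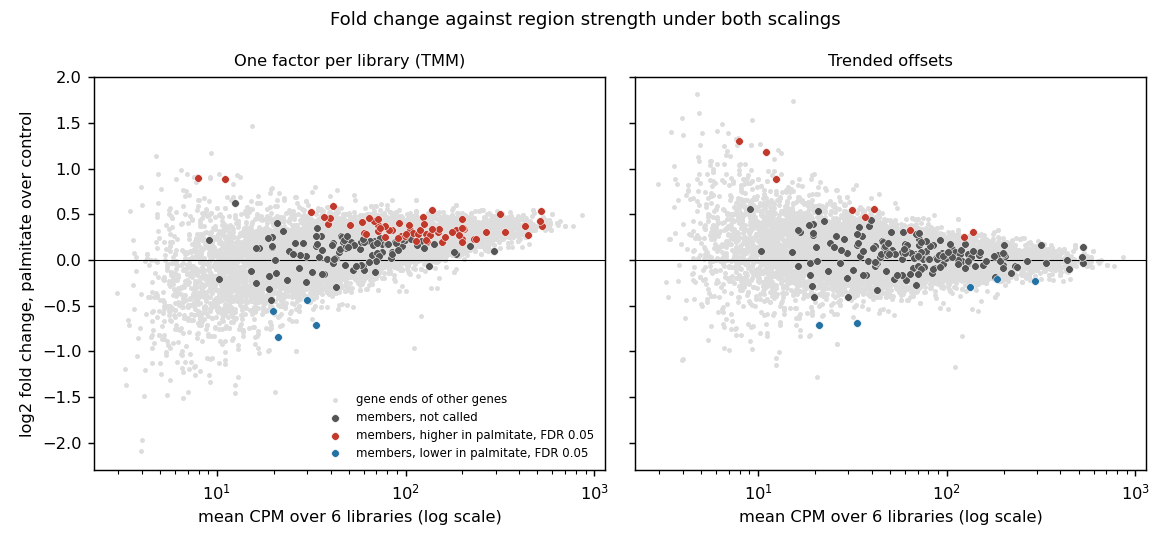
Log2 fold change (palmitate over control) against mean CPM (log scale) for the members (dark and coloured points) and all other gene ends (grey), with a TMM factor per library on the left and trended offsets on the right. On the left the fold changes climb with strength for members and other genes alike and 63 members are called higher; on the right 9 are.

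Among the coat genes, those of COPII, which buds cargo from the endoplasmic reticulum, were higher at 6 of 9 gene ends (median log2 fold change 0.23), and those of COPI, which returns cargo to it, at 1 of 7 (median 0.18). Sec16a, which organises the sites where COPII vesicles form, had 462, 500 and 502 CPM in palmitate and 387, 362 and 382 CPM in control libraries. Every palmitate library lay above every control (0.37 ± 0.057, edgeR adjusted p = 2.45e-05), but with trended offsets the value was -0.00 (adjusted p = 0.994). The inner coat genes Sec23a (0.23), Sec23b (0.29), Sec24a (0.38) and Sec24b (0.39) and the outer coat gene Sec31a (0.21) were also higher, and none of these was called with trended offsets. The calls of Sec31a, Sec23b and Sec24b were made in only 2, 4 and 7 of 16 alternatives. Sec13, also of the outer coat, did not pass (-0.20 ± 0.25, edgeR adjusted p = 0.595).

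In the COPI coat, Copz2, a zeta subunit gene, had 73.7, 82.2 and 86.3 CPM in palmitate and 64.9, 66.2 and 55.8 CPM in control libraries (0.38 ± 0.10, edgeR adjusted p = 0.00616; trended 0.23). The groups did not overlap, but this region lay 669 bp from a gene end and 11996 bp from the listed start site. Copg2, with the highest mean count of the class, had 159, 149 and 146 CPM in palmitate and 123, 135 and 141 CPM in control libraries and did not pass (0.18 ± 0.076, edgeR adjusted p = 0.0802). Copg1 was the only member with a called further region, 241 bp from its other end and shared with an end of Hmces, with 48.1, 48.2 and 55.6 CPM in palmitate and 36.6, 29.6 and 39.8 CPM in control libraries. That region was higher under both scalings (0.52 ± 0.13, edgeR adjusted p = 0.00436; trended 0.48, adjusted p = 0.0284), while the main Copg1 region was not called (0.22, adjusted p = 0.0571). With trended offsets the further region was lost without palmitate library 3 or control library 1 or 2 (adjusted p up to 0.137). Of the other Sec genes, 2 of 8 for the translocon and signal peptidase were higher, Sec11c (0.31) and Sec63 (0.32), and 2 of the remaining 7, Sec14l1 (0.28) and Sec22a (0.25). Sec63 was called in 7 of 16 alternatives and Sec22a in 3.

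The adaptor genes, whose products link cargo to coats, had 5 of 21 higher and 1 lower. Of the alpha subunit genes of AP-2, the adaptor of clathrin-mediated endocytosis, only Ap2a1 was called. Ap2a1 had 618, 618 and 627 CPM in palmitate and 443, 401 and 441 CPM in control libraries, and its region chr7:44929413-44930036 (mm10) also holds an end of Tsks. Its palmitate values were all above its controls (0.54 ± 0.056, edgeR adjusted p = 2.10e-07), with the smallest p of all members and, per kb of region, the highest mean level, 842 CPM per kb. Ap2a2, encoding the other alpha subunit, had 59.9, 61.5 and 52.2 CPM in palmitate and 57.5, 60.9 and 63.2 CPM in control libraries, and the groups overlapped (-0.07 ± 0.11, edgeR adjusted p = 0.690). With trended offsets Ap2a1 narrowly missed the threshold (0.14, adjusted p = 0.0502).

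AP-3 directs proteins from endosomes to lysosomes and granules. Ap3d1, its delta subunit gene, had 217, 228 and 247 CPM in palmitate and 167, 164 and 178 CPM in control libraries, without overlap (0.44 ± 0.069, edgeR adjusted p = 2.81e-05; trended 0.16). Ap3b1, encoding the beta subunit whose loss impairs granule release by cytotoxic T cells, had 38.6, 42.8 and 41 CPM in palmitate and 42.7, 39.3 and 43.9 CPM in control libraries and showed no called difference (-0.03 ± 0.13, edgeR adjusted p = 0.871). Ap3s2, a sigma subunit gene, was the only lower adaptor, with 16.9, 19.0 and 11.9 CPM in palmitate and 27.9, 23 and 20.4 CPM in control libraries. Its groups did not overlap (-0.55 ± 0.20, edgeR adjusted p = 0.0427, and with trended offsets -0.41, adjusted p = 0.232). But the call was made in 10 of 16 alternative analyses and was lost without palmitate library 1 or 3 or control library 1 (adjusted p = 0.0745, 0.236 and 0.177). Ap3m1, for the medium subunit, was lower only with trended offsets (-0.30, adjusted p = 0.0162; TMM -0.06). Ap1m1 (0.29) and Ap1s2 (0.20), of the AP-1 complex between Golgi and endosomes, and Ap4b1 (0.33), whose region is shared with Dclre1b, were higher with TMM and not with trended offsets, Ap1s2 in 5 of 16 alternatives.

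Rab GTPases, switches that mark each membrane and recruit its motors and tethers, had 20 of 44 main regions higher (45.5%) and 2 lower (median 0.25). Their median strength was 88.9 CPM, and 62.1% of all gene ends in the strongest group were higher. With trended offsets 1 Rab region was higher and 3 were lower. Early endosomes are governed by the Rab5 genes. Rab5b, whose region also holds an end of Pmel, had 387, 362 and 362 CPM in palmitate and 267, 257 and 264 CPM in control libraries. Rab5c had 163, 159 and 172 CPM in palmitate and 136, 132 and 133 CPM in control libraries. Both were above their controls in every library (Rab5b 0.50 ± 0.060, edgeR adjusted p = 1.55e-06; Rab5c 0.30 ± 0.072, adjusted p = 0.00248). Rab5a, with 187, 185 and 188 CPM in palmitate and 183, 177 and 168 CPM in control libraries, lay above by a small margin that did not pass (0.09 ± 0.068, edgeR adjusted p = 0.370). With trended offsets none of the 3 was called (Rab5b 0.16, adjusted p = 0.0707).

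The promoters of Ap2a1 and Rab5b are shown because they had the smallest p of the adaptor and Rab genes, and that of Rab5a as the uncalled relative of Rab5b, all from RefSeq on GRCm38.p6 (mm10), from 250 bases before to 50 after the listed start, 5′ to 3′ on the gene's strand. They are at chr7:44929441-44929740 (minus strand), chr10:128696219-128696518 (minus) and chr17:53478984-53479283 (plus). Capitals mark matches, on either strand, to the motifs searched, which were the GC box with the letters GGGCGG, the CCAAT box and the E-box with the letters CACGTG. The others searched were the centre of the lysosomal CLEAR element, TCACGTGA, which contains the E-box, the cyclic AMP response element (CRE), TGACGTCA, the unfolded protein response element, TGACGTGG, an ETS site, CCGGAAGT, and the core of the NRF1 site, GCGCATGC.
Ap2a1: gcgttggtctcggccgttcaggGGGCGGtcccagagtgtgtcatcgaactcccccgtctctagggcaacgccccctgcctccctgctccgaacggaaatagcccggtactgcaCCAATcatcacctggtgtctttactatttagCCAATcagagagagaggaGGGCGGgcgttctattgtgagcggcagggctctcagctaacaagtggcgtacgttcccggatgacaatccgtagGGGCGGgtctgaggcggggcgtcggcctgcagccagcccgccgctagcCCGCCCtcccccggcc
Rab5b: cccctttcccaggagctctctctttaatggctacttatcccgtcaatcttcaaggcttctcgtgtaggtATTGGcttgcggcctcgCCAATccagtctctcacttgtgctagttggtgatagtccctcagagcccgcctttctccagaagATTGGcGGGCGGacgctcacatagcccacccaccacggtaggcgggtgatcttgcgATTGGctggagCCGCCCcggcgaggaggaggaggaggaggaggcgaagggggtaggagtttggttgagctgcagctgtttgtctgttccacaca
Rab5a: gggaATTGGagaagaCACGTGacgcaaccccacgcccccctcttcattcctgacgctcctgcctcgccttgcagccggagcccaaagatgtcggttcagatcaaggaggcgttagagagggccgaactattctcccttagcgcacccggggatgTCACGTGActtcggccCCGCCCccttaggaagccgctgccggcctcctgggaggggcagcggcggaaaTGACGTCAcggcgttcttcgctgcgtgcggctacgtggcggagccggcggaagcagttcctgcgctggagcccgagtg
Ap2a1 held 4 GC boxes and 2 CCAAT boxes and Rab5b held 2 GC boxes and 4 CCAAT boxes, while Rab5a held 2 E-boxes, of which 1 is the CLEAR centre, with 1 CRE, 1 GC box and 1 CCAAT box. Over the 129 member promoters that overlapped their main region, 72.9% held a GC box and 39.5% a CCAAT box, against 71.9% and 40.7% of the 7098 such promoters of all genes and 46.2% and 38.2% of all 21263 listed promoters. The CLEAR centre stood in 7 member promoters (5.43%, against 2.48% and 1.23%): Rab24, Rab5a, Sec23ip, Sec62, Vps16, Vps26a and Vps33a. Of these 7, Vps26a was called higher and the others were not called. The E-box stood in 13.2% (against 11.5% and 7.84%), the ETS letters in 14.0% (10.5% and 5.15%), NRF1 in 5.43% (6.71% and 3.52%), the CRE in 2.33% (4.09% and 2.2%) and the unfolded protein response element in 2.33% (0.873% and 0.705%). A match describes letters only, and no share was tested.

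Rab7, of late endosomes and lysosomes, was the only Rab gene higher under both scalings. It had 67.8, 77.1 and 77.1 CPM in palmitate and 55.8, 55.2 and 51 CPM in control libraries (0.46 ± 0.10, edgeR adjusted p = 0.00151; trended 0.33, adjusted p = 0.0484). The groups did not overlap, and the call held in all 16 alternatives. Leaving out a library as well as applying trended offsets ended it for every library but control 2 (adjusted p up to 0.213). Rab8a and Rab40c were strong and higher with TMM and not with trended offsets. Rab8a, of Golgi-to-surface traffic, had 572, 607 and 602 CPM in palmitate and 453, 423 and 451 CPM in control libraries (0.43 ± 0.055, edgeR adjusted p = 3.58e-06; trended 0.03). Rab40c, a Rab with a SOCS box, had 593, 587 and 612 CPM in palmitate and 464, 443 and 479 CPM in control libraries (0.37 ± 0.054, edgeR adjusted p = 1.58e-05; trended -0.03).

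Recycling and secretory Rabs were mixed. Rab11b, Rab4b, Rab14 and Rab22a were higher (0.30, 0.33, 0.25 and 0.31), whereas Rab11a and Rab35 were not called. Rab11a, of recycling endosomes, had 95.8, 83.2 and 73.2 CPM in palmitate and 86.7, 81.5 and 80.2 CPM in control libraries (0.02 ± 0.097, edgeR adjusted p = 0.884), and its sign turned with total counts (-0.09). Rab35, of fast recycling, had 45.7, 46.9 and 39.9 CPM in palmitate and 36.6, 41.3 and 38.1 CPM in control libraries, and the groups overlapped (0.19 ± 0.13, edgeR adjusted p = 0.297). Rab27a, which docks lytic granules at the synapse, had 24.4, 30.2 and 26.8 CPM at its gene end in palmitate and 30.5, 29.9 and 36 CPM in control libraries. These overlapped and did not pass (-0.24 ± 0.16, edgeR adjusted p = 0.268). Rab1a (0.28), Rab2a (0.32) and Rab6a (0.33), of traffic through the Golgi, were higher with TMM and not with trended offsets. Rab33b, linked to the Golgi and autophagy, was lower only with trended offsets (-0.21, adjusted p = 0.0392; TMM 0.06).

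Rab20 and Rab36 were the lower Rab genes, and both were lower in all 16 alternatives. Rab20, linked to endosomes and phagosomes, had 25.6, 26.8 and 23 CPM in palmitate and 45.3, 33.6 and 45.6 CPM in control libraries (-0.71 ± 0.15, edgeR adjusted p = 0.00102; trended -0.69, adjusted p = 0.00660). Its region, 171 bp from the gene end, lay 25421 bp from the listed start site, so the lower region was not at that start. Rab36, linked to late endosomes and the Golgi, had 15.4, 15.6 and 14.6 CPM in palmitate and 23.5, 32.6 and 25.2 CPM in control libraries (-0.84 ± 0.19, edgeR adjusted p = 0.00149; trended -0.71, adjusted p = 0.0205). The palmitate libraries lay below every control at both genes. With trended offsets the calls were lost on leaving out control library 3 for Rab20 (adjusted p = 0.0784) and on leaving out any library but control 1 for Rab36 (up to 0.0861).

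Of 8 Rab partners, 3 were higher with TMM and not with trended offsets. Rab3ip, an exchange factor for Rab8, had 95.8, 117 and 102 CPM in palmitate and 74.1, 76.2 and 87.4 CPM in control libraries (0.40 ± 0.093, edgeR adjusted p = 0.00191; trended 0.22). Rab5if had 113, 123 and 118 CPM in palmitate and 80.2, 93.8 and 96.2 CPM in control libraries (0.38 ± 0.085, edgeR adjusted p = 0.00144; trended 0.18). Neither pair of groups overlapped. Rab3gap2, part of a complex that activates Rab18 and switches Rab3 off, was also higher (0.42 ± 0.099, edgeR adjusted p = 0.00232).

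**Figure D3:**
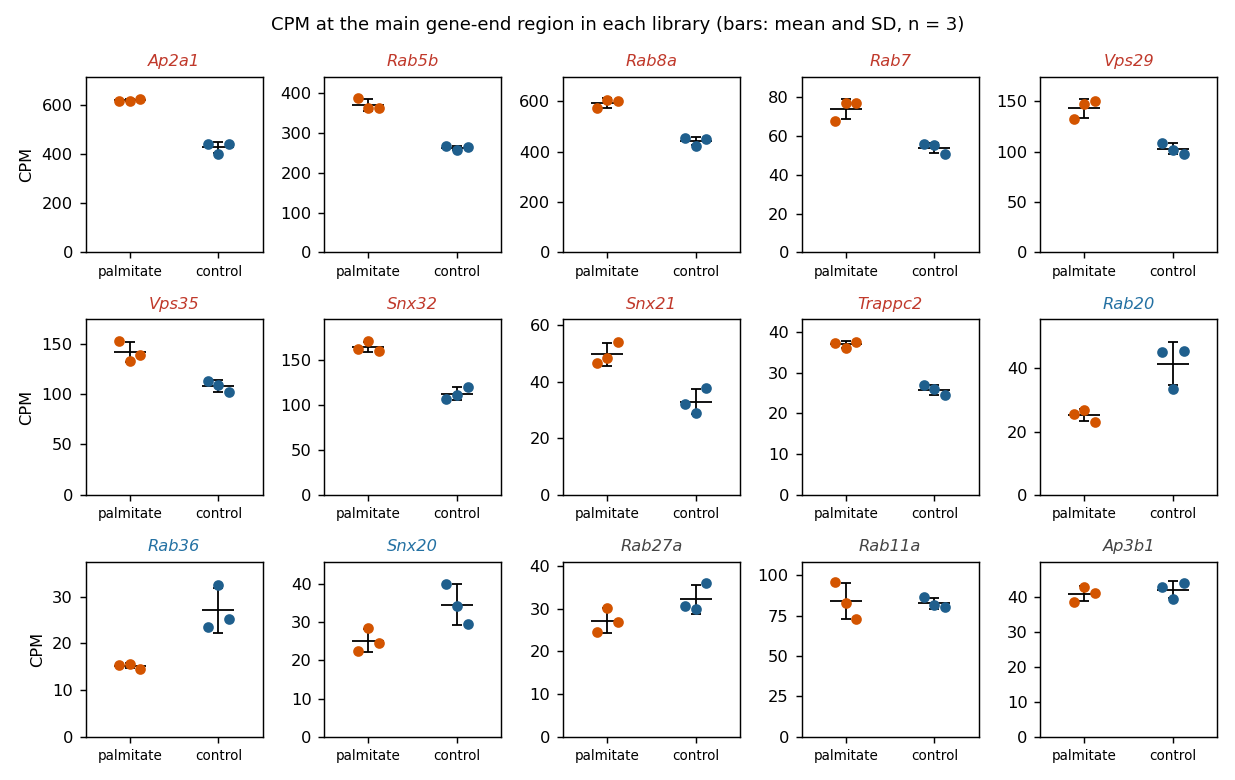
CPM at the main gene-end region of 15 members in each palmitate (left) and control (right) library, with the mean and SD (n = 3 each); red names were higher in palmitate, blue names lower and grey names not called with TMM. Ap2a1 to Trappc2 have no overlap between groups, as do Rab20, Rab36 and Snx20 in the other direction, and Rab27a, Rab11a and Ap3b1 overlap.

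The cargo-selective retromer and retriever genes had 4 of 6 higher (66.7%, median 0.36), namely Vps29, Vps35, Vps26a and Vps26b, which encode all subunits of the retromer trimer. The 6 regions had a median of 124 CPM, and 62.1% of all gene ends in the strongest group, above 77.8 CPM, were higher. Vps29 had 132, 147 and 150 CPM in palmitate and 109, 102 and 97.9 CPM in control libraries. Vps35, the scaffold, had 153, 133 and 139 CPM in palmitate and 113, 109 and 102 CPM in control libraries. Neither overlapped (Vps29 0.47 ± 0.080, edgeR adjusted p = 7.10e-05; Vps35 0.39 ± 0.080, adjusted p = 0.000567). Vps26a (0.35) and Vps26b (0.37) were similar in size, and the Vps29, Vps35 and Vps26b regions also lie at ends of Rad9b, Orc6 and Ncapd3. With trended offsets Vps29 stayed past the threshold (0.25, adjusted p = 0.0423) and Vps35 did not (0.17, adjusted p = 0.204). Vps29 with trended offsets was lost without any library except control 2 or palmitate 1 (adjusted p up to 0.229). The remaining genes of the 6, Vps35l and Vps26c of retriever, were not called higher. Vps35l gave -0.02 ± 0.10 (edgeR adjusted p = 0.893), and Vps26c had 301, 306 and 308 CPM in palmitate and 269, 275 and 311 CPM in control libraries. Vps26c overlapped and was not called with TMM (0.10 ± 0.063, adjusted p = 0.278) but was lower with trended offsets (-0.24, adjusted p = 0.00897), and without control library 3 that call was lost (adjusted p = 0.106).

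Sorting nexins, which bind phosphoinositides and shape endosomal tubules, had 9 of 26 higher and 1 lower. Snx32 had 162, 171 and 160 CPM in palmitate and 106, 111 and 120 CPM in control libraries (0.55 ± 0.076, edgeR adjusted p = 7.44e-06; trended 0.31, adjusted p = 0.00744). Snx21 had 46.5, 48.2 and 54.1 CPM in palmitate and 32.2, 28.9 and 37.7 CPM in control libraries (0.59 ± 0.13, edgeR adjusted p = 0.00169; trended 0.56, adjusted p = 0.0119). Both were higher in every palmitate library and in all 16 alternatives. With trended offsets, leaving out control library 1 ended the Snx32 call (adjusted p = 0.0540) and leaving out palmitate library 3 the Snx21 call (0.0749). Snx11, with 219, 233 and 227 CPM in palmitate and 186, 159 and 190 CPM in control libraries, was higher with TMM and not with trended offsets (0.35 ± 0.071, edgeR adjusted p = 0.000576; trended 0.07). Snx9, an endocytic nexin that binds dynamin, did not pass with TMM (0.62, edgeR adjusted p = 0.0577) but did with trended offsets (0.88, adjusted p = 0.0258), and was called in 3 of 16 alternatives.

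Snx20, which binds the adhesion ligand PSGL-1, was the lower sorting nexin, with 22.5, 28.5 and 24.5 CPM in palmitate and 40.1, 34.3 and 29.6 CPM in control libraries. The groups were close but did not overlap (-0.44 ± 0.16, edgeR adjusted p = 0.0403, and with trended offsets -0.40, adjusted p = 0.133). The call was made in 8 of 16 alternatives. It was lost without palmitate library 1 or 3 or control library 1 or 2 (adjusted p = 0.152, 0.121, 0.187 and 0.050). Snx27, which works with retromer in receptor recycling, had 58.3, 54.7 and 57.9 CPM in palmitate and 47.5, 72.9 and 55.4 CPM in control libraries and did not pass (-0.06 ± 0.12, edgeR adjusted p = 0.773). Its sign rested on control library 2, without which it was 0.14 (adjusted p = 0.448).

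Tethers catch vesicles before fusion. TRAPP genes, whose complexes activate Rab1 and Rab11, had 4 of 12 higher: Trappc1 (0.33), Trappc2 (0.52), Trappc2l (0.23) and Trappc11 (0.24), all at ends shared with another gene. Trappc11 was called in 3 of 16 alternatives. Trappc1 had 132, 138 and 129 CPM in palmitate and 98.5, 99.2 and 119 CPM in control libraries (edgeR adjusted p = 0.00381; trended 0.11). Trappc2l had 246, 246 and 268 CPM in palmitate and 227, 213 and 210 CPM in control libraries (edgeR adjusted p = 0.00988; trended -0.08), a call lost without palmitate library 3 (adjusted p = 0.0851). Both were above their controls in every library. Trappc2, whose region also holds an end of Ofd1, had 37.4, 36 and 37.6 CPM in palmitate and 27.0, 26 and 24.5 CPM in control libraries. It did not overlap and was called under both scalings (0.52 ± 0.15, edgeR adjusted p = 0.00905; trended 0.55, adjusted p = 0.0223). With trended offsets it was lost without any library but control 2 (adjusted p up to 0.114).

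Of the endosome and lysosome tethers HOPS and CORVET, 1 of 7 was higher, the CORVET gene Vps8 (0.28). Of the Golgi and endosome tethers GARP and EARP, 2 of 5 were higher, Vps52 (0.35) and the GARP gene Vps54. The Vps54 region was the weakest of all members by mean CPM and had peaks in 2 of the 6 deposited lists. It held 30, 31 and 23 reads, or 11.8, 10.5 and 8.82 CPM, in palmitate and 9, 17 and 20 reads, or 3.92, 5.66 and 6.80 CPM, in control libraries. The groups did not overlap (0.90 ± 0.30, edgeR adjusted p = 0.0244; trended 1.30, adjusted p = 0.00660). Without palmitate library 1 or 2 or control library 1 the TMM call was lost (adjusted p = 0.0902, 0.0685 and 0.0993). Vps50, of EARP, gave -0.44 ± 0.20 and did not pass (edgeR adjusted p = 0.111).

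ESCRT proteins sort ubiquitinated receptors into the vesicles of multivesicular bodies. Of the 9 ESCRT genes named Vps, 4 were higher, with a median of 0.24: Vps4a (0.34), Vps37c (0.44), Vps37b and Vps25. Vps37b, of ESCRT-I, had 37.1, 50.3 and 40.6 CPM in palmitate and 32.2, 31.3 and 29.2 CPM in control libraries (0.47 ± 0.14, edgeR adjusted p = 0.0146; trended 0.47, adjusted p = 0.0473). Vps25, of ESCRT-II, had 34, 40 and 41 reads, or 13.4, 13.6 and 15.7 CPM, in palmitate and 20, 22 and 21 reads, or 8.71, 7.32 and 7.14 CPM, in control libraries (0.89 ± 0.25, edgeR adjusted p = 0.00954; trended 1.19, adjusted p = 0.00378). Neither overlapped, but the Vps25 region lay 677 bp from a gene end and 6521 bp from the listed Vps25 start, at an end of Wnk4. A region inside Vps25 that covers a listed Vps25 start was not called (0.14, edgeR adjusted p = 0.681; trended 0.35, adjusted p = 0.350). The Vps37b call was lost without palmitate library 2 or control library 3 (adjusted p = 0.152 and 0.0505; up to 0.258 with trended offsets), and the Vps25 call without palmitate library 3 (0.0527).

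The members called higher in the TMM fit and in all 16 alternatives were Rab7, Snx21, Snx32, Trappc2 and Vps29, and a further 23 were called higher in all but 1. With trended offsets, each of the 5 calls made in all 16 was lost on leaving out some library, as given above. Of the 5, Snx32 had no promoter in the RefSeq table that overlapped its region. The promoters of Rab7, Snx21, Vps29 and Trappc2 are shown because those calls were made in all 16 alternatives, trended offsets included. They are at chr6:88045221-88045520 (minus), chr2:164785771-164786070 (plus), chr5:122354078-122354377 (plus) and chrX:166440505-166440804 (plus), with the same motifs in capitals.
Rab7: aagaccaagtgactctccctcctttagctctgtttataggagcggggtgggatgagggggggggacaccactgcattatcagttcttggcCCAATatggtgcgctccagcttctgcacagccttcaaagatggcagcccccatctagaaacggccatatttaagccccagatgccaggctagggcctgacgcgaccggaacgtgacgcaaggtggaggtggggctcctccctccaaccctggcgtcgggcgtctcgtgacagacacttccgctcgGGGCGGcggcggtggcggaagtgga
Snx21: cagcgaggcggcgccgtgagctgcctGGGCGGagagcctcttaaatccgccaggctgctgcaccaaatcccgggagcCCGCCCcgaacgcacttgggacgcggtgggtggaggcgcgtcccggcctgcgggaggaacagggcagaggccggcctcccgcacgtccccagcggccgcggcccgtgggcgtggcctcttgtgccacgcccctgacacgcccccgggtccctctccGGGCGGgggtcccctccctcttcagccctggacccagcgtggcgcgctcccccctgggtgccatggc
Vps29: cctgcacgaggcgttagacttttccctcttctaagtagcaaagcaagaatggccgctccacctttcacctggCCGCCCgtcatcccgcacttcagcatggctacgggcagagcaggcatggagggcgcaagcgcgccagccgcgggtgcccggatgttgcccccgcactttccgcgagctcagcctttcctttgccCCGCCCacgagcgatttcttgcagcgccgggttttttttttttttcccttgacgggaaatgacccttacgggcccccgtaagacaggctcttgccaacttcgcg
Trappc2: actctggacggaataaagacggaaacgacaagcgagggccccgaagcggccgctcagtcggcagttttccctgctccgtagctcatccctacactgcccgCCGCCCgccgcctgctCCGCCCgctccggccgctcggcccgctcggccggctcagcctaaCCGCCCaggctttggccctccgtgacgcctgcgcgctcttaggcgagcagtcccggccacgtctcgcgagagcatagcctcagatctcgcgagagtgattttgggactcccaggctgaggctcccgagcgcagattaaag
All 4 held a GC box: 1 in Rab7, with 1 CCAAT box, 3 in Snx21, 2 in Vps29 and 3 in Trappc2. Their GC content was 61%, 75.7%, 60.7% and 67.0%, beside a median of 63% over member promoters, 62.3% over promoters that overlapped the main region of any gene and 56.3% over all listed promoters.

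Within a library, the ratio of counts at related genes does not depend on a single factor per library, though trended offsets shift pairs of unequal strength. The ratio of Ap2a1 to Ap2a2 was 10.3, 10.0 and 12 in palmitate and 7.70, 6.58 and 6.97 in control libraries. The ratio of Rab5b to Rab5a was 2.07, 1.96 and 1.92 in palmitate and 1.46, 1.45 and 1.57 in control libraries. The ratio of Ap3s2 to Ap3s1 was 0.157, 0.190 and 0.126 in palmitate and 0.317, 0.257 and 0.216 in control libraries. The groups were apart for these 3 and for Rab5c over Rab5a, Rab11b over Rab11a, Rab2a over Rab2b and Rab33a over Rab33b, that is 7 of 24 pairs examined, each with a two-sided exact permutation p = 0.100, the smallest that 3 against 3 libraries allow. Such a ratio shows unequal change and does not say which region moved. In the Rab5, Rab11 and Ap2a pairs the region called higher was also the more open per kb. By counts, however, Rab5c and Rab2a, both called higher, lay below Rab5a and Rab2b in every library. The Ap3s pair held a lower call and the Rab33 pair no call. The other 17 pairs overlapped, among them Rab8a over Rab8b and Vps26a over Vps26b. The pairs were chosen after the values were seen, so the p-values and the 7 of 24 describe these pairs and support no wider claim. A share over pairs of other gene ends is not given.

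**Figure D4:**
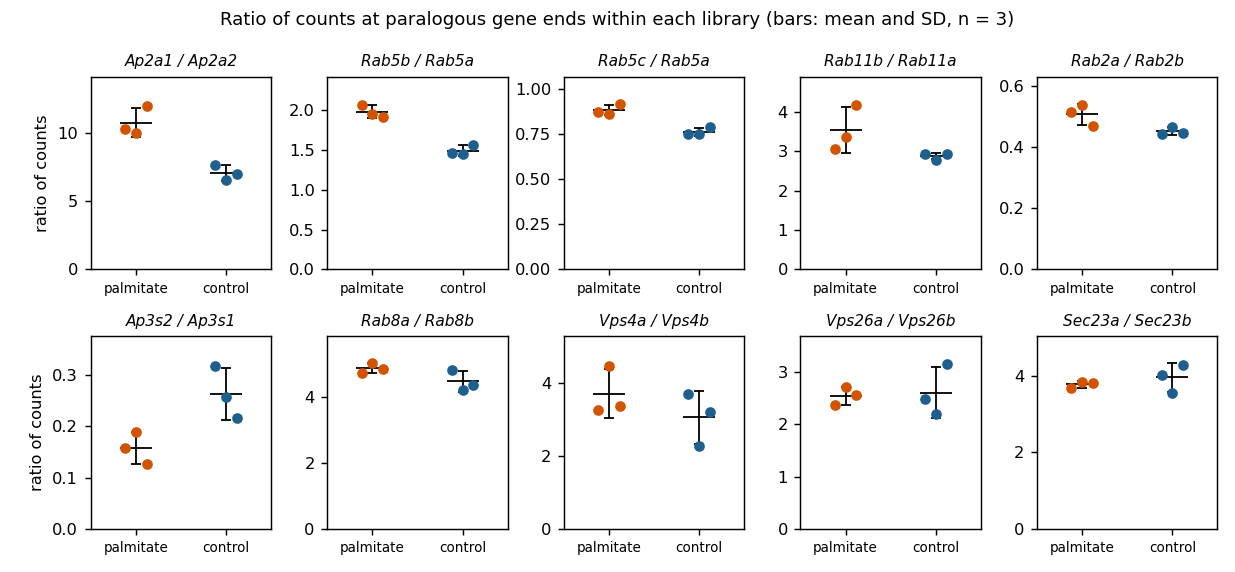
Ratio of counts at the main gene-end regions of 10 of the 24 pairs of related genes in each palmitate (left) and control (right) library, with the mean and SD (n = 3 each). The upper 5 ratios are above their controls in every palmitate library, Ap3s2 over Ap3s1 is below, and the last 4 overlap.

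Away from gene ends lower calls outnumbered higher ones. Inside 48 member genes, over 1 kb from any gene end, lay 86 tested regions, of which 1 was higher and 14 lower (16.3%), in 13 genes. Of all regions inside genes 4.30% were higher and 19.6% lower, so the members' share was near the background. With trended offsets 8 of the 86 were called, all lower (9.30%), at a median of -0.06. Of all regions inside genes 1.93% were then higher and 5.64% lower, at a median of -0.03.

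Rab27a, whose gene end was not called, held 2 of the lower inner regions. The region at chr9:73060350-73060701 (mm10), 3447 bp from the nearest listed Rab27a start, had 5.12, 6.12 and 6.90 CPM in palmitate and 17.4, 13.6 and 22.8 CPM in control libraries. This was the largest inner change in Rab27a, without overlap (-1.56 ± 0.27, edgeR adjusted p = 7.96e-05; trended -1.26, adjusted p = 0.00427). Its call held in every alternative that kept the region, and with trended offsets it was lost without control library 3 (adjusted p = 0.0795). A further Rab27a region at chr9:73089335-73089856 had 19.3, 21.1 and 21.1 CPM in palmitate and 28.8, 28.9 and 28.9 CPM in control libraries (-0.49, edgeR adjusted p = 0.0284; trended -0.41, adjusted p = 0.139). That call was lost without any library but control 2 (adjusted p up to 0.0905), and the other 3 inner regions were not called.

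Snx29 and Snx30 had a region called lower inside the gene and a gene end called higher with TMM. At chr16:11475370-11475982, Snx29 had 20.9, 19.4 and 15.0 CPM in palmitate and 49.2, 31.3 and 43.2 CPM in control libraries (-1.15 ± 0.18, edgeR adjusted p = 2.60e-05; trended -1.09, adjusted p = 0.000327). At chr4:59895092-59895461, Snx30 had 10.6, 5.78 and 6.14 CPM in palmitate and 24.8, 18.6 and 20.4 CPM in control libraries (-1.50 ± 0.25, edgeR adjusted p = 5.79e-05; trended -1.25, adjusted p = 0.00231). Neither overlapped, while their gene ends gained 0.46 and 0.28 (edgeR adjusted p = 0.0208 and 0.0482), gains not called with trended offsets and called in 9 of 16 alternatives at Snx29 and 3 of 16 at Snx30. Rab8b was the other such gene, with -0.62 inside and 0.29 at the end, making 3 of the 15 genes with a higher end and an inner region. The share over all genes is not given. Snx29 had 6 further inner regions and Rab8b had 3, and none of them was called. Rab20 was lower inside as well as at its end (-0.76 inside, edgeR adjusted p = 0.00106; trended adjusted p = 0.00612).

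**Figure D5:**
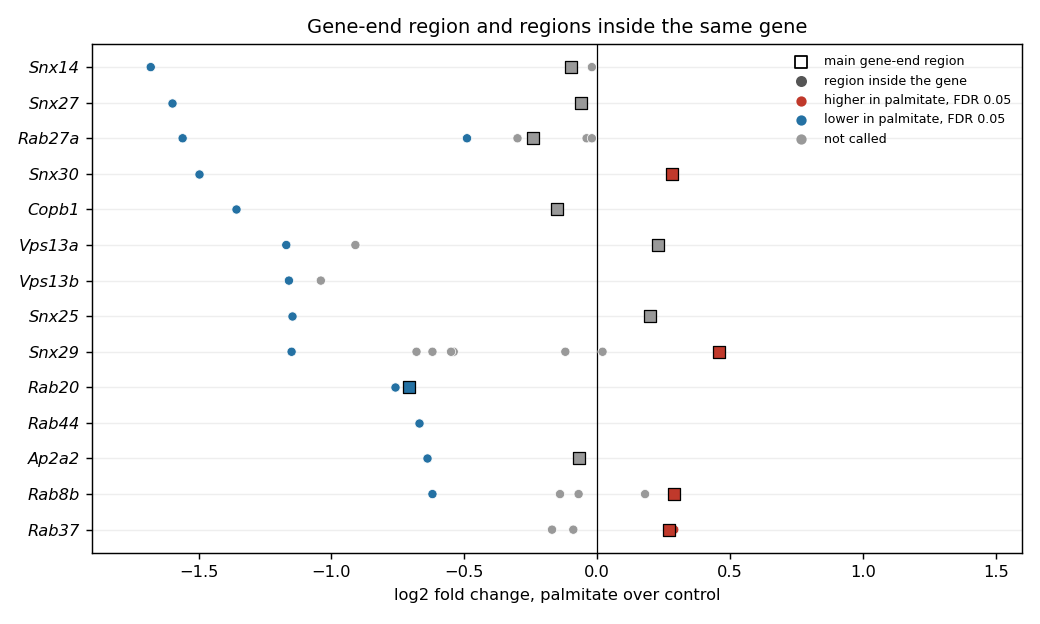
Log2 fold change (palmitate over control) at the main gene-end region (squares) and at regions inside the gene (circles) for the 14 member genes with a called inner region; Rab44 and Vps13b have no gene-end region. The called inner regions lie below 0 in 13 genes, while the ends of Snx29, Snx30 and Rab8b lie above 0.

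The remaining lower inner regions were in Ap2a2 (-0.64), Snx27 (-1.60), Vps13b (-1.16), Snx25 (-1.15), Snx14 (-1.68), Copb1 (-1.36), Vps13a (-1.17) and Rab44 (-0.67), and the first 4 were also lower with trended offsets. Ap2a2, the AP-2 gene whose end was not called, had 36.3, 34.7 and 32.2 CPM inside the gene in palmitate and 55.8, 53.9 and 51.7 CPM in control libraries, without overlap. Snx27 had 5.91, 4.42 and 4.6 CPM inside the gene in palmitate and 20.5, 12 and 13.6 CPM in control libraries. The called inner regions of Snx27, Snx14, Copb1 and Vps13a had peaks in control lists only. If the regions were drawn from those lists, a lower call there was favoured in advance. The only higher inner region was in Rab37, linked to secretion (0.29, edgeR adjusted p = 0.0258), and it was not called with trended offsets or, with TMM, without 4 of the libraries in turn (adjusted p up to 0.103). With a library left out, the Rab8b, Rab44 and Vps13a calls were also lost (adjusted p up to 0.183), as were those of Rab20, Snx27, Snx25 and Vps13b with trended offsets (up to 0.180).

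Between genes, 58 tested regions had a member as the nearest gene end, of which 5 were higher and 8 lower, beside 2.66% higher and 18.4% lower of all intergenic regions. With trended offsets 3 of the 58 were called, all lower (5.17%), beside 1.77% higher and 5.28% lower of all intergenic regions. The smallest p was 43.5 kb from Copb1, at chr7:114171342-114172075, with 48.9, 38.1 and 45.2 CPM in palmitate and 75.8, 75.5 and 83.0 CPM in control libraries (-0.83 ± 0.11, edgeR adjusted p = 4.25e-06; trended -0.95, adjusted p = 3.31e-06). The next lay 1.96 kb from an end of Trappc6b, at chr12:59040227-59041136, with 9.85, 10.5 and 11.1 CPM in palmitate and 34.0, 21.3 and 26.2 CPM in control libraries (-1.35 ± 0.21, edgeR adjusted p = 3.53e-05; trended -1.17, adjusted p = 0.00115). Neither overlapped, and the main end regions of Copb1 (-0.15) and Trappc6b (-0.14) were not called. The nearest gene need not be the one a distant region acts on.

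Genes of vesicle traffic outside the symbol rule were counted in the same way. Of 128 such genes with a region, 38 were higher (29.7%) and 2 lower (1.56%), and 4 were higher (3.12%) and 1 lower (0.781%) with trended offsets. Over all gene ends 26.4% were higher and 1.92% lower, and 2.46% and 1.27% with trended offsets, so these shares were near the background. Clathrin and endocytosis genes had 8 of 19 higher, including Cltc, the clathrin heavy chain (0.43 ± 0.074, edgeR adjusted p = 0.00010), and Dnm2, the dynamin that cuts vesicles free (0.39). ARF and SAR GTPases with their regulators had 9 of 21 higher, including Cyth2 (0.45) and Preb (0.51), the exchange factor for SAR1, also called with trended offsets (0.44, adjusted p = 0.0280). Regulators of the Rab cycle had 9 of 31 higher, including Rabep1, a Rab5 effector (0.48; trended 0.36, adjusted p = 0.0376). The SNARE list, whose members fuse membranes, had 8 of 34 higher and 2 lower. Vti1b, a SNARE of late endosomes, had 85.5, 81.2 and 91.6 CPM in palmitate and 112, 105 and 98.3 CPM in control libraries and was lower under both scalings (-0.28 ± 0.087, edgeR adjusted p = 0.0160; trended -0.47, adjusted p = 0.000904). Stx16 was lower with TMM and not with trended offsets (-0.57, edgeR adjusted p = 0.0467). The exocyst had 1 of 7 higher and the ESCRT genes outside Vps 3 of 16.

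The deposited peak lists gave a further reading of the same libraries. Peaks overlapped the main regions of 172, 173 and 173 members in the palmitate lists and of 170, 171 and 172 in the control lists, and 166 members (95.4%) had a peak in all 6 lists. The authors' peak scores, compared only within a list, had a median of 656, 795 and 691 at members in the palmitate lists and 512, 624 and 684 in the control lists, beside 226, 248 and 230 in palmitate and 175, 203 and 198 in control over all regions with a peak.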

How the data were processed

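ATAC-seq of 3 palmitate and 3 control libraries was analysed from the deposited raw counts per region and the deposited peak lists, whose score column is the peak caller's as deposited. Per the submitters' processing notes the build was mm10 and the tools were Bowtie2 2.5.1, MACS2 2.2.8, Trim Galore 0.6.10, edgeR 3.40.2 and Picard 2.23.8. How the authors shifted reads for Tn5, built the regions and counted reads is not given in the sources used here.

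Gene spans and promoters were taken from RefSeq on GRCm38.p6. Counts were tested with edgeR 4.0.16 (R 4.3.3) by glmQLFit and glmQLFTest, two-sided, with TMM factors and filterByExpr, which kept 24316 of 24605 regions; adjusted p-values are Benjamini-Hochberg over all of them, and a call is a false discovery rate of 0.05. CPM use TMM library sizes, and the SE is the absolute log2 fold change over the square root of F. Trended offsets were a loess of each library's log deviation on mean strength (span 0.3, pseudocount 0.5). The common biological coefficient of variation was 0.0659. No pairing of libraries was used. Replicates of a group differed beyond sampling noise (chi-square per degree of freedom 1.19 to 2.04). No value column was left unmapped (0). The fits were run on simulated counts with a common dispersion and no trend with region strength. That run therefore cannot bear on the choice between TMM and trended offsets. Alternatives included DESeq2 1.42.0, limma-voom 3.58.1, other scalings and filters and each library left out in turn.

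Named genes were the 2 members per class and direction with the smallest p among called, non-overlapping members, the member of each class with the highest count, every member called lower or called under both scalings, 10 members chosen for known roles in lymphocytes, and up to 3 inner regions per direction; others were named after their values were seen. The members and lists were chosen with earlier results of these data known.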

Additional observations from a re-analysis of the deposited data

How the results depend on the processing

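The 63 higher member calls numbered 42 with DESeq2's Wald test, 70 with DESeq2 size factors and 48 with upper-quartile factors. They numbered 29 with total counts, 9 with trended offsets and 44 to 55 with a library left out. Among regions in all 6 peak lists, which held 166 of the 174 members, they numbered 31. Shares of all gene ends are given only for TMM and trended offsets. The 4 lower calls numbered 2 with DESeq2's Wald test or size factors and 2 to 4 with a library left out. The members' median of 0.20 was 0.23 with DESeq2's Wald test or size factors, 0.17 with at least 20 reads in 3 libraries, 0.14 with upper-quartile factors, 0.11 in all 6 lists, 0.08 with total counts, 0.06 with trended offsets and 0.18 to 0.24 with a library left out. The median of all gene ends, 0.15 with TMM, moved as well. It was 0.19 with DESeq2's Wald test, 0.18 with DESeq2 size factors and 0.09 with upper-quartile factors. It was 0.08 in all 6 lists, 0.03 with total counts and 0.05 with trended offsets. Total counts moved the median of all regions from -0.05 to -0.16. Over all regions, 2894 were higher and 3078 lower with TMM. The higher count was 1931 (DESeq2 Wald), 3310 (DESeq2 size factors), 1993 (upper-quartile), 1376 (all 6 lists), 1282 (total counts) and 513 (trended). The lower count was 1229 (DESeq2 Wald), 1462 (all 6 lists), 944 (trended) and 1871 to 3391 (a library left out). The 15 inner calls numbered 8 with trended offsets. With trended offsets and a library left out, which was chosen after the data were seen, 3 to 11 members were higher and 1 to 4 lower. The sign turned with trended offsets at Copg2 (-0.06), Rab11a (-0.15), Rab40c (-0.03), Sec16a (-0.00), Trappc2l (-0.08) and Vps26c (-0.24, and -0.28 to -0.19 with a library left out; with TMM and a library left out Vps26c was 0.06 to 0.19). Rab11a also turned with at least 20 reads (-0.01), in all 6 lists (-0.06), with total counts (-0.09) and upper-quartile factors (-0.03), and ranged from -0.07 to 0.11 with a library left out. Vps26c turned with total counts (-0.02), Ap3b1 ranged from -0.08 to 0.03 and Snx27 from -0.17 to 0.14 with a library left out. The cause was not tested. The labels link libraries of the 2 groups only by a replicate number. The deviations of same-numbered libraries had correlations of 0.000412, -0.103 and -0.027, and no library correlated best with its own number. The replicate block left 55 members higher and 4 lower and changed no call among the named genes.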
